A study of Mus musculus with 14 samples.

Results

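The TNF and interleukin-1 cytokine system was followed through 10 genes of the 31507 in the deposited table of gene levels, picked by name: the ligands Tnf, Il1a, Il1b and Il18, the receptors Tnfrsf1a, Tnfrsf1b and Il1r1, the receptor antagonist Il1rn, and the NF-kB inhibitors Nfkbia and Tnfaip3. The samples were mouse brain tissue, and the assay was m6A sequencing: an antibody captures fragments of poly(A) RNA bearing the mark N6-methyladenosine (IP), and reads of these are set against reads of RNA not selected in this way (input). The acupuncture group (2 input and 2 IP libraries) had an intracerebral haemorrhage and was needled at the GV20 point for 7 days. The ICH group (2 input and 2 IP libraries) had a haemorrhage made with autologous blood, and the sham group (3 input and 3 IP libraries) had a sham operation. All acupuncture and ICH libraries therefore come from brains with a haemorrhage, although the treatment label of the acupuncture samples gives acupuncture alone. Strain, sex, age, brain region, the time after injury and whether animals were pooled are not given in the sources used here. Since no label ties a replicate to an animal of its own, the p-values reflect only how far these samples differ from each other, a spread that may be technical.

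TNF and interleukin-1 are cytokines made soon after tissue injury, chiefly by microglia and infiltrating myeloid cells, and they act on receptors that lead to the kinases that free NF-kB from its inhibitors. NF-kB then drives inflammatory genes, among them its own inhibitor Nfkbia (IkB-alpha) and the ubiquitin-editing enzyme Tnfaip3 (A20), which restrain the pathway. Interleukin-1-beta and interleukin-18 are made as inactive precursors that caspase-1 cuts in the inflammasome. RNA levels say nothing of these later steps.

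Gene levels were the authors' FPKM values for input RNA, a read level per transcript length, and their totals per library lay between 179810 (the second ICH library) and 198472. Read depth per library is unknown. Over the 13666 genes tested, which are not independent of each other, Pearson's r of log2 levels was 0.976 for the acupuncture pair, 0.942 for the ICH pair and at least 0.983 between any sham libraries. ICH replicate 1 was closer to the acupuncture libraries (0.975 and 0.969) than to ICH replicate 2, whose r with every other library was 0.910 to 0.942. Summed levels of 6 neuronal markers, 614 to 649 FPKM after acupuncture, 677 to 920.0 in ICH and 715 to 787 in sham, showed that neuronal RNA was present in every library. The 4 choroid plexus markers summed to 1.64 FPKM in acupuncture replicate 2 and to 333 to 483 in the other libraries, so acupuncture replicate 2 stood apart in these. Results below are also given without single libraries where that changes them.

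Of the 10 genes, 9 reached the mean of 1 FPKM over the 7 input libraries that testing required, and Il1rn did not, with a mean of 0.765 FPKM. Only Tnfrsf1a, Il18 and Nfkbia had a mean of at least 1 FPKM in sham alone. The other 6 passed through the groups in which they were high, so counts over the 9 tested genes describe them and lend no further support. Fold changes are differences of log2(FPKM + 1), which understate the change of genes at low levels. Tests used limma with Benjamini-Hochberg adjustment over all 13666 genes, and a gene was called at an adjusted p under 0.05.

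In acupuncture against sham, 8 of the 9 tested genes rose, where 8.47% of all tested genes rose. In ICH against sham, 5 of 9 rose (Tnf, Tnfrsf1a, Tnfrsf1b, Il1a and Il1r1), where 4.95% of all tested genes rose. In acupuncture against ICH none of the 9 was called, where 0.0366% of all tested genes were called higher. There, limma gave an unadjusted p under 0.05 to 4 of the 9, all higher after acupuncture, and to 2754 of all genes, and 11.9% of all tested genes had such a p and were higher. The median log2 fold change was 1.16 for the 9 genes and 0.04 for all tested genes in acupuncture against sham. It was 0.90 and -0.01 in ICH against sham, and 0.37 and 0.05 in acupuncture against ICH. The counts moved with single libraries. In acupuncture against sham 5 genes were called without sham replicate 3, where 5.55% of all tested genes rose. Leaving out either acupuncture library, which leaves the other alone in its group, lowered the count for the set and for all genes. In ICH against sham 2 were called without sham replicate 1 or 2, where 2.69% and 2.84% of all tested genes rose. Without sham replicate 3, where 2.9% rose, 3 were called. Leaving out ICH replicate 2 also lowered the count for the set and for all genes. In acupuncture against ICH, leaving out ICH replicate 1, which leaves ICH replicate 2 alone in its group, raised the count for the set and for all genes. The sham libraries enter both comparisons against sham, and the ICH and acupuncture libraries each enter 2 comparisons, so these counts are not independent of each other. In bulk tissue, more RNA per cell and more cells of a type cannot be told apart.

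Counted over all 10 genes with no test, the acupuncture and sham libraries did not overlap for 9 genes, all higher after acupuncture, as for 31.8% of all tested genes. The ICH and sham libraries did not overlap for 8 genes, all higher in ICH, as for 21.5% of all tested genes. The acupuncture and ICH libraries did not overlap for 5 genes, all higher after acupuncture, as for 28.8% of all tested genes. Those 5 were Tnf, Tnfrsf1a, Tnfrsf1b, Il1rn and Nfkbia.

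**Figure D1:**
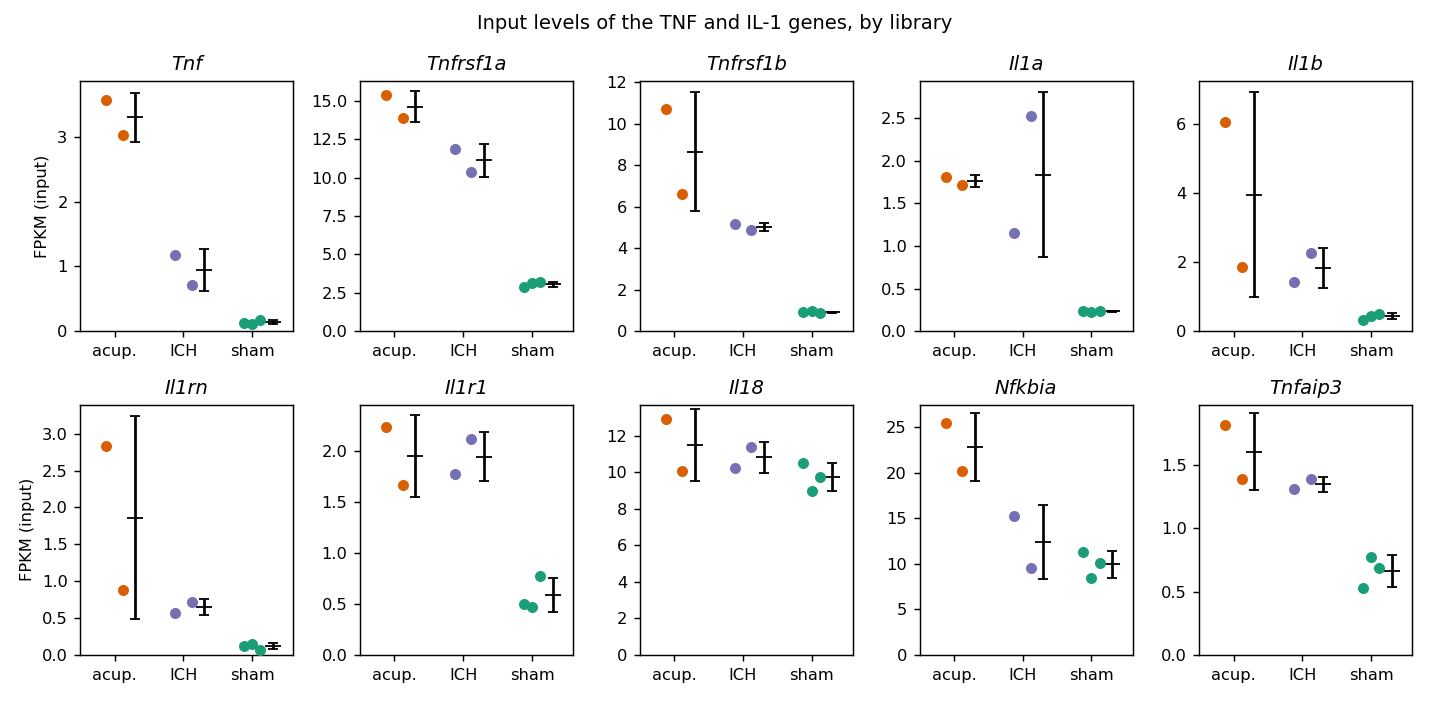
Input level in FPKM (vertical axes, each starting at 0) of the 10 genes in each library of the acupuncture, ICH and sham groups; points are libraries, and the bar beside each group is its mean with the SD. Tnf, Tnfrsf1a, Tnfrsf1b, Il1rn and Nfkbia were highest in both acupuncture libraries. The receptors were high in both haemorrhage groups, and Il18 lay between 8.95 and 12.9 FPKM in every library.

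Tnf, the founding ligand of the TNF superfamily (ENSMUSG00000024401, GRCm38 chr17:35199381-35202007, minus strand), had 3.57 and 3.03 FPKM in the acupuncture libraries. It had 1.18 and 0.714 FPKM in ICH, and 0.133, 0.113 and 0.176 FPKM in sham. The 3 groups did not overlap in any pair, and the acupuncture libraries were the highest and the sham libraries the lowest. Tnf rose by 1.91 on the log2 scale in acupuncture against sham (SE 0.14, limma adjusted p = 3.77e-04), and its means were 3.30 ± 0.381 FPKM and 0.141 ± 0.0324 FPKM (SD, n = 2 and 3). It also rose in ICH against sham, by 0.76 (SE 0.14, limma adjusted p = 0.0270). That call was lost without sham replicate 1, 2 or 3, where the adjusted p was 0.104, 0.0917 and 0.0895. The acupuncture and ICH means differed by 1.15 (SE 0.16, 95% interval 0.78 to 1.52), and this missed the threshold (limma adjusted p = 0.0827). Without ICH replicate 1 the difference was 1.32 with an adjusted p of 0.00295, in the setting that called 37.3% of all genes, where the lone ICH replicate 2 is taken to vary like the other groups. Without either acupuncture library Tnf fell below the level required for testing.

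The promoters of Tnf and of both inhibitors are shown because all 3 genes are textbook targets of NF-kB and rose in acupuncture against sham. Each run is the 250 bases before an annotated start on the gene's strand, from RefSeq on GRCm38.p6. These are chr17:35202008-35202257 for Tnf, chr12:55492648-55492897 for Nfkbia and chr10:19015411-19015660 for Tnfaip3, all on the minus strand. Capitals mark the letters GGNNTTTCC, a core of the binding motif of NF-kB, on either strand.
Tnf: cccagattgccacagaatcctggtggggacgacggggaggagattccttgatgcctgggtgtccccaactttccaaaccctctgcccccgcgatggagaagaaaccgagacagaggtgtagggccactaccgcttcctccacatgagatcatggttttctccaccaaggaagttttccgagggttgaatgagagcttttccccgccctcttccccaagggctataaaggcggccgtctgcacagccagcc
Nfkbia: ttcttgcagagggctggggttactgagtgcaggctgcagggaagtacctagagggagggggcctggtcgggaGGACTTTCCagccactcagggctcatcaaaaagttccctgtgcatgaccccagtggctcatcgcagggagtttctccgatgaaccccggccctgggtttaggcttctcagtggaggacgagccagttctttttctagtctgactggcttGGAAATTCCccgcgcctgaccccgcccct
Tnfaip3: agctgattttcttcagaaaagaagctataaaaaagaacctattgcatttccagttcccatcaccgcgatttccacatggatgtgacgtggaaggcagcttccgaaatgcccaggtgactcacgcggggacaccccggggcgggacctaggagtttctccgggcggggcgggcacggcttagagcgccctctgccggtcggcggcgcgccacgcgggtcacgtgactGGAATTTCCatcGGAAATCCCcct
The core was found 2 times before Nfkbia, 178 to 170 bases before the start and, on the other strand, 29 to 21 bases before it. It was found 2 times before Tnfaip3, 24 to 16 bases before the start and, on the other strand, 12 to 4 bases before it. Of all 32851 RefSeq windows of this length, 4.93% held the core at least 1 time and 0.198% at least 2 times. Among the 14 windows of the 10 genes, 1 further window, before an alternative start of Il1rn, held it. A window before another start of Tnfaip3 (chr10:19011964-19012213) did not. Nor did the window of Il1b, which also rose in acupuncture against sham and is not shown. These letters were chosen after the promoters had been read, do not show binding, and their absence from the Tnf window says only that they are not in those 250 bases.

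Tnfrsf1a, the broadly expressed receptor for TNF with a death domain (ENSMUSG00000030341, chr6:125349362-125362484, plus strand), had 15.4 and 13.9 FPKM after acupuncture and 11.9 and 10.4 FPKM in ICH. The sham libraries had 2.88, 3.15 and 3.18 FPKM. It rose by 1.94 on the log2 scale in acupuncture against sham (SE 0.10, limma adjusted p = 8.97e-05) and by 1.57 in ICH against sham (SE 0.10, limma adjusted p = 3.85e-04). Both calls remained when any of the 7 libraries was left out. Both acupuncture libraries lay above both ICH libraries, and the difference of 0.37 (95% interval 0.11 to 0.63) missed the threshold (limma adjusted p = 0.199). Without ICH replicate 1 it was 0.46 with a limma adjusted p of 0.0185, again in the setting that called 37.3% of all genes.

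Tnfrsf1b, the receptor for TNF without a death domain, found mainly on immune and endothelial cells (ENSMUSG00000028599, chr4:145213463-145246870, minus strand), had 10.7 and 6.63 FPKM after acupuncture. It had 5.16 and 4.88 FPKM in ICH and 0.905, 0.951 and 0.870 FPKM in sham. Acupuncture replicate 1 stood above all other libraries, and no pair of groups overlapped. The gene rose by 2.31 in acupuncture against sham (SE 0.17, limma adjusted p = 3.78e-04) and by 1.66 in ICH against sham (SE 0.17, limma adjusted p = 0.00236). Leaving out any of the 7 libraries kept both calls. Acupuncture and ICH differed by 0.65 (95% interval 0.20 to 1.10, limma adjusted p = 0.197), and by 0.34 without acupuncture replicate 1 and 0.96 without acupuncture replicate 2 (limma adjusted p = 0.423 and 0.185).

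Il1a, the form of interleukin-1 that is active without being cut (ENSMUSG00000027399, chr2:129299610-129309972, minus strand), had 1.81 and 1.71 FPKM after acupuncture and 1.15 and 2.52 FPKM in ICH. The sham libraries had 0.236, 0.224 and 0.238 FPKM. The ICH libraries lay on either side of the acupuncture pair, and every sham library lay below both groups. Il1a rose by 1.16 in acupuncture against sham (SE 0.20, limma adjusted p = 0.0124) and by 1.16 in ICH against sham (SE 0.20, limma adjusted p = 0.0206). The first call was lost without acupuncture replicate 1 or 2 (adjusted p = 0.0876 and 0.0758), and the second without sham replicate 1, 2 or 3 (adjusted p = 0.0803, 0.0744 and 0.0756). Without ICH replicate 2 the gene fell below the testing filter. The difference between acupuncture and ICH was 0.00355, with a 95% interval of -0.52 to 0.53. A gene on the opposite strand, Gm14023, shares 8217 bases with Il1a and had at most 0.221 FPKM.

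Il1b, the interleukin-1 that caspase-1 activates (ENSMUSG00000027398, chr2:129364570-129371139, minus strand), had 6.05 and 1.86 FPKM after acupuncture. It had 1.42 and 2.25 FPKM in ICH and 0.337, 0.448 and 0.512 FPKM in sham. Acupuncture replicate 1 stood well above its partner, which lay between the ICH libraries. Il1b rose by 1.65 in acupuncture against sham (SE 0.35, limma adjusted p = 0.0269). Without acupuncture replicate 1 the change was 0.9999 with a limma adjusted p of 0.0538, and without sham replicate 1, 2 or 3 the adjusted p was 0.0914, 0.0753 and 0.0768. In ICH against sham the change of 0.97 missed the threshold (limma adjusted p = 0.184), and it passed without acupuncture replicate 1 or 2 (adjusted p = 0.0320 and 0.0295). Acupuncture and ICH overlapped, with a difference of 0.68 (95% interval -0.24 to 1.59) that was 0.028 without acupuncture replicate 1 and 1.33 without acupuncture replicate 2. Its antisense gene Il1bos shares 1243 bases and had at most 0.0914 FPKM.

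Il18, an inflammasome-dependent cytokine made also in unharmed tissue (ENSMUSG00000039217, chr9:50554827-50581840, plus strand), had 12.9 and 10.1 FPKM after acupuncture, 10.2 and 11.4 FPKM in ICH, and 10.5, 8.95 and 9.71 FPKM in sham. The 3 groups overlapped. The log2 differences were 0.21 in acupuncture against sham (95% interval -0.09 to 0.52), 0.14 in ICH against sham (-0.17 to 0.44) and 0.07 in acupuncture against ICH (-0.26 to 0.41). None passed in limma, where the smallest adjusted p was 0.365. It was the only tested member called in no comparison against sham, and the intervals bound its change at 0.52. Bco2, on the opposite strand, shares 355 bases with Il18 and had at most 1.79 FPKM.

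Il1r1, the signalling receptor of interleukin-1, found in brain mainly on endothelium and some neurons (ENSMUSG00000026072, chr1:40225080-40317257, plus strand), had 2.24 and 1.67 FPKM after acupuncture and 1.77 and 2.12 FPKM in ICH. The sham libraries had 0.504, 0.473 and 0.777 FPKM. The 2 haemorrhage groups overlapped and both lay above sham. Il1r1 rose by 0.90 in acupuncture against sham (SE 0.15, limma adjusted p = 0.00949) and by 0.90 in ICH against sham (SE 0.15, limma adjusted p = 0.0158). The first call was lost without acupuncture replicate 1 (change 0.76, adjusted p = 0.0744), and the second without sham replicate 1 or 2 or ICH replicate 2 (adjusted p = 0.0731, 0.0635 and 0.0729). Acupuncture and ICH differed by -0.00113, with a 95% interval of -0.38 to 0.38.

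Il1rn, the antagonist that occupies Il1r1 without signalling (ENSMUSG00000026981, chr2:24336853-24351494, plus strand), had 2.83 and 0.886 FPKM after acupuncture. It had 0.570 and 0.721 FPKM in ICH and 0.125, 0.150 and 0.0726 FPKM in sham. As for Il1b, acupuncture replicate 1 was far above its partner, and no pair of groups overlapped. Il1rn was below the testing filter. With a filter of 0.5 FPKM it rose by 1.27 in acupuncture against sham (SE 0.27, limma adjusted p = 0.0276), and with no filter the adjusted p was 0.0766. Its sham mean was 0.116 FPKM, so it passed the filter of 0.5 FPKM through the groups in which it was high. That call therefore lends no further support, and it was not repeated without acupuncture replicate 1.

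An exact permutation test that needs no filter compared all 4 haemorrhage libraries with the 3 sham libraries for Tnf, Il1b and Il1rn. The haemorrhage mean was higher by 1.98 FPKM for Tnf, 2.46 FPKM for Il1b and 1.14 FPKM for Il1rn, in 4 of 4 libraries each. Each two-sided exact p was 0.0571, also after Benjamini-Hochberg adjustment over the 3 genes, and this is the smallest that the 35 splits allow. Without acupuncture replicate 1 the differences were 1.50, 1.41 and 0.610 FPKM.

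Nfkbia, which holds NF-kB in the cytoplasm (ENSMUSG00000021025, chr12:55489410-55492647, minus strand), had 25.5 and 20.2 FPKM after acupuncture, 15.2 and 9.54 FPKM in ICH, and 11.3, 8.43 and 10.04 FPKM in sham. The acupuncture libraries were above all others, and the ICH libraries overlapped sham. Nfkbia rose by 1.12 in acupuncture against sham (SE 0.21, limma adjusted p = 0.0170), and its means were 22.8 ± 3.72 FPKM and 9.93 ± 1.44 FPKM (SD, n = 2 and 3). That call was lost without sham replicate 2 or 3 (adjusted p = 0.0569 and 0.0591) and without acupuncture replicate 1 or 2 (change 0.96, adjusted p = 0.129, and change 1.28, adjusted p = 0.0597). In ICH against sham the change of 0.27 missed the threshold (95% interval -0.23 to 0.77, limma adjusted p = 0.464), and it was -0.04 without ICH replicate 1, 0.58 without ICH replicate 2 and 0.17 without sham replicate 2. Acupuncture and ICH differed by 0.86 (95% interval 0.30 to 1.41, limma adjusted p = 0.189), by 1.17 without ICH replicate 1 (limma adjusted p = 0.00742, in the setting that called 37.3% of all genes) and by 0.54 without ICH replicate 2 (limma adjusted p = 0.311).

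Tnfaip3, which removes ubiquitin chains that carry the TNF signal (ENSMUSG00000019850, chr10:19000910-19015657, minus strand), had 1.82 and 1.39 FPKM after acupuncture and 1.31 and 1.39 FPKM in ICH. The sham libraries had 0.526, 0.774 and 0.691 FPKM. Acupuncture replicate 1 was highest, the other acupuncture library lay at the level of ICH, and sham lay below both groups. Tnfaip3 rose by 0.65 in acupuncture against sham (SE 0.13, limma adjusted p = 0.0212), and the call was lost without sham replicate 1 or 3 or acupuncture replicate 1 (adjusted p = 0.0863, 0.0761 and 0.139). In ICH against sham the change was 0.50 (SE 0.13, limma adjusted p = 0.0816), with an adjusted p of 0.0489 without ICH replicate 1. Acupuncture and ICH differed by 0.14 (95% interval -0.19 to 0.48), and by 0.024 without acupuncture replicate 1 and 0.26 without acupuncture replicate 2.

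**Figure D2:**
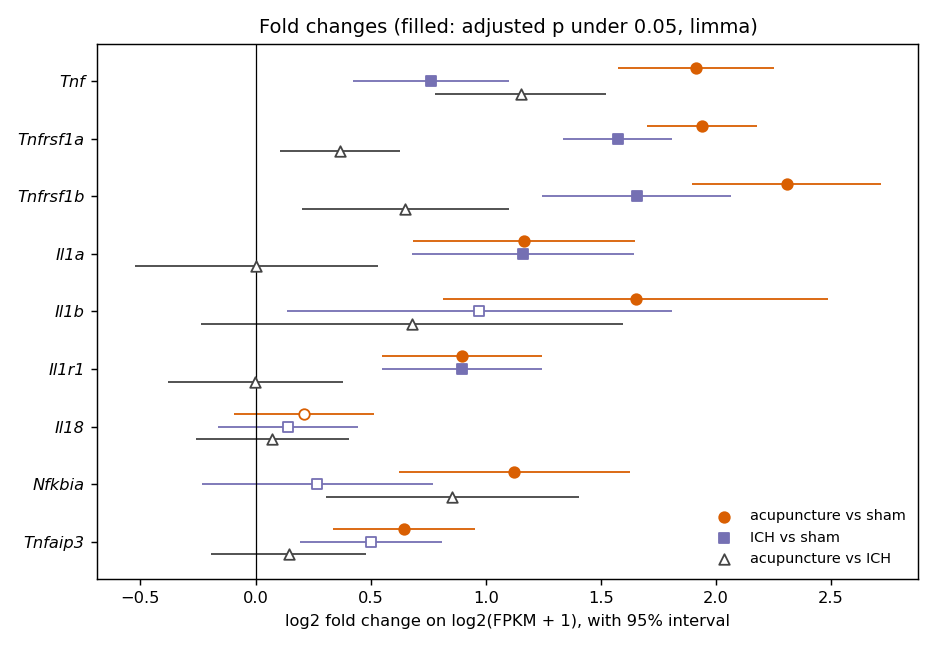
Log2 fold change on log2(FPKM + 1) with its 95% interval (horizontal axis) for the 9 tested genes, in acupuncture against sham (circles), ICH against sham (squares) and acupuncture against ICH (triangles); filled marks passed limma at an adjusted p under 0.05. Tnf, Tnfrsf1a, Tnfrsf1b and Nfkbia are the genes whose interval for acupuncture against ICH lies above 0, though none is filled.

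With acupuncture and ICH joined as a haemorrhage group of 4 libraries, 5 of 9 genes rose against sham, where 6.71% of all tested genes did: Tnfrsf1a (1.76), Tnfrsf1b (1.98), Il1a (1.16), Il1r1 (0.90) and Tnfaip3 (0.57), on the log2 scale. The libraries of the joined group did not overlap sham for 8 of the 10 genes, as for 14.4% of all tested genes. Tnf changed by 1.34 and Il1b by 1.31, with limma adjusted p of 0.0512 and 0.0544. In this fit acupuncture and ICH shared a mean, so any difference between them counted as spread. The SE of Tnf was 0.34, against 0.14 in ICH against sham with a mean per group. For Il1b it was 0.34 against 0.35. Tnf passed with a pseudocount of 0.1 or 0.5, a filter of 0.5 FPKM, rescaled libraries or no variance trend, or without ICH replicate 2 (adjusted p of 0.00925 to 0.0494). Il1b passed with a pseudocount of 0.1 or 0.5 and without ICH replicate 1 or acupuncture replicate 1 (adjusted p of 0.00967 to 0.0457). Nfkbia passed without ICH replicate 2 (change 0.94, adjusted p = 0.0167), and Tnfaip3 did not pass without sham replicate 1, 2 or 3 (adjusted p = 0.104, 0.0511 and 0.0788).

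Markers of the cells known to make these cytokines also differed between the groups. The 10 listed markers of macrophages and monocytes summed to 286 and 255 FPKM after acupuncture, 132 and 211 FPKM in ICH and 11.5 to 14.0 FPKM in sham, and none was at 0 in all libraries. Lyz2, the lysozyme of myeloid cells, made up 232 and 222 FPKM of those sums after acupuncture. All 4 of the tested markers rose in each comparison against sham. The 8 microglial markers summed to 177 and 160 FPKM after acupuncture, 216 and 188 FPKM in ICH and 85.8 to 95.5 FPKM in sham. Of these, 4 rose in each comparison against sham and 2 fell in acupuncture against sham. Neutrophil markers, 9 of 10 in the table, summed to 85.5 and 57.5 FPKM after acupuncture, 21.5 and 23.0 FPKM in ICH and 9.46 to 12.4 FPKM in sham. Of the 3 tested, 3 were called higher in acupuncture and 1 in ICH against sham. The alarmins S100a8 and S100a9 made up most of the neutrophil sum. Cxcr2 had 1.66 and 1.28 FPKM after acupuncture, 0.513 and 0.434 FPKM in ICH and 0.0245 to 0.0502 FPKM in sham. Csf3r had 7.45 and 7.95, 5.65 and 7.56, and 1.20 to 1.40 FPKM. Ngp went the other way after acupuncture, at 0.405 and 0.212 FPKM against 0.455 to 0.746 FPKM in sham. The defining marker Mpo was under 0.1 FPKM in every library, and Ly6g was above 0 in acupuncture replicate 1 alone, at 0.145 FPKM. The 6 astrocyte markers summed to 714 and 576 FPKM after acupuncture, 659 and 665 FPKM in ICH and 246 to 269 FPKM in sham. Gfap made up 451 and 362 FPKM of those sums after acupuncture, 394 and 338 FPKM in ICH and 24.0 to 29.4 FPKM in sham. Slc1a2 went the other way after acupuncture, at 122 and 84.2 FPKM against 137 to 152 FPKM in sham, without being called. Of the 6 markers, 3 were called higher in acupuncture and 2 in ICH against sham. The 5 endothelial markers are of the cell type named above for Tnfrsf1b and Il1r1. They summed to 64.9 and 62.2 FPKM after acupuncture, 45.4 and 35.9 FPKM in ICH and 24.4 to 32.1 FPKM in sham. Against sham, 3 were called higher in acupuncture and 2 in ICH. Cldn5 made up 47.5 and 45.5 FPKM of those sums after acupuncture, 30.0 and 16.8 FPKM in ICH and 13.9 to 20.1 FPKM in sham. Pecam1, Cdh5, Flt1 and Kdr were not higher in both acupuncture libraries than in both ICH libraries. Oligodendrocyte markers summed to 599 and 381 FPKM after acupuncture, 650 and 618 FPKM in ICH and 818 to 1048 FPKM in sham, with 2 of 5 called lower in acupuncture against sham. The lymphocyte markers summed to at most 4.48 FPKM in any library. The part of these cell types in the levels of the cytokine genes was not tested.

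The genes most like 4 of the members over the 7 input libraries were found by Pearson's r of log2(FPKM + 1), given as a description without a test, since the 3 groups shape any such r. For Tnf they were Arhgdia (0.997), Angptl4 (0.997) and Slc31a2 (0.996), all highest in the acupuncture pair. For Tnfrsf1a they were Ccl12 (0.9985), Tlr2 (0.998) and C1qc (0.998), a chemokine, an innate receptor and a complement subunit. For Il1b they were Riiad1 (0.980), Bst1 (0.979) and Acadl (0.978), each highest in acupuncture replicate 1. For Nfkbia they were Hsd17b10 (0.998), Qars (0.996) and Slc7a5 (0.995).

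The rest of the pathway was read from 8 lists of 120 genes, of which 62 passed the filter. Against sham, 24 rose and 1 fell after acupuncture, where 8.47% of all tested genes rose and 3.22% fell. In ICH 18 rose and none fell, where 4.95% of all tested genes rose and 0.724% fell. Of the 62 genes, 18 had a sham mean under 1 FPKM, among them 7 of the 13 targets of NF-kB and all 3 inflammasome genes, and passed the filter through the groups in which they were high. The counts of these lists therefore describe them and lend no support. Between acupuncture and ICH limma called none, with a median log2 fold change of 0.12. The medians against sham were 0.40 for acupuncture and 0.40 for ICH. When any of the 7 libraries was left out in turn, 16 of the 25 calls in acupuncture against sham and 10 of the 18 in ICH against sham remained throughout. In ICH against sham 11 of 67 rose without sham replicate 1, where 2.69% of all genes rose. Without ICH replicate 1, 33 of 63 rose and 3 fell, where 18.2% of all genes rose and 38% were called in either direction. That setting also called 19 of the 63 in acupuncture against ICH, 13 higher and 6 lower, a smaller share than the 37.3% of all genes.

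Of the 14 tested adaptors of the TNF receptor, 4 rose and 1 fell in acupuncture against sham, and 2 rose in ICH against sham. Of all tested genes, 8.47% rose and 3.22% fell in the first comparison, and 4.95% rose in the second. These counts are small and were not tested against those shares. Adam17, the protease that sheds TNF from the cell surface, had 4.50 and 4.81 FPKM after acupuncture, 3.93 and 3.96 FPKM in ICH and 2.15 to 2.43 FPKM in sham. It rose by 0.76 in acupuncture and by 0.57 in ICH (limma adjusted p = 0.00251 and 0.0146), the second call being lost without sham replicate 1, 2 or 3. Ripk1, the kinase at the receptor complex, rose by 0.62 and 0.49 in the same comparisons (limma adjusted p = 0.0111 and 0.0438). Tnip1, a partner of A20, rose by 0.54 in acupuncture against sham (limma adjusted p = 0.0146), and its difference of 0.37 between acupuncture and ICH was not called. Cyld, another deubiquitinase that restrains the pathway, fell by 0.61 in acupuncture against sham (limma adjusted p = 0.0134). The acupuncture calls of Ripk1, Tnip1 and Cyld were lost without sham replicate 1 or 3 or acupuncture replicate 1 or 2, with an adjusted p of at most 0.113. The ICH call of Ripk1 was kept only without ICH replicate 1.

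Of the 9 tested genes of the interleukin-1 and interleukin-18 receptor system, 2 rose in each comparison against sham. Of all tested genes, 8.47% rose in acupuncture and 4.95% in ICH against sham. Counts this small were not tested against those shares. Myd88, the adaptor shared by interleukin-1 and Toll-like receptors, had 5.35 and 5.21 FPKM after acupuncture, 3.69 and 2.59 FPKM in ICH and 1.41 to 1.63 FPKM in sham. It rose by 1.30 in acupuncture and by 0.68 in ICH (limma adjusted p = 0.00135 and 0.0298). Irak3, an inhibitory member of the kinase family that Myd88 recruits, rose by 1.40 in acupuncture and by 0.85 in ICH (limma adjusted p = 0.00233 and 0.0292). The ICH calls of both were lost without sham replicate 1, 2 or 3, that of Irak3 also without ICH replicate 2 and that of Myd88 also without either acupuncture library, with an adjusted p of up to 0.123. Il18bp, the secreted trap of interleukin-18, changed by 0.59 and 0.48 and did not pass (limma adjusted p = 0.0621 and 0.156). Irak1 changed by 0.25 and 0.17.

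Only 3 inflammasome genes were tested. Pycard (ASC), the adaptor of the inflammasome, had 3.76 and 2.92 FPKM after acupuncture, 2.23 and 2.17 FPKM in ICH and 0.468 to 0.585 FPKM in sham. It rose by 1.51 in acupuncture and by 1.07 in ICH (limma adjusted p = 4.96e-04 and 0.00318). Gsdmd, the pore through which interleukin-1 leaves the cell, rose by 1.34 in acupuncture (limma adjusted p = 0.00204) and changed by 0.63 in ICH (limma adjusted p = 0.0671). Aim2, a sensor of DNA, changed by 0.47 and 0.60 and did not pass.

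Of 11 tested NF-kB kinases and subunits, 2 rose in acupuncture against sham and 1 in ICH against sham, counts that a share of 8.47% and 4.95% of all tested genes puts near the background. Nfkb2 had 2.82 and 2.92 FPKM after acupuncture, 1.93 and 1.36 FPKM in ICH and 0.499 to 0.737 FPKM in sham, and it rose by 1.29 and 0.73 (limma adjusted p = 0.00148 and 0.0259). The second call was lost when any sham or acupuncture library was left out, with an adjusted p of up to 0.108. Nfkb1 rose by 0.48 in acupuncture (limma adjusted p = 0.0442) and was not called when any sham or acupuncture library was left out. Rela (0.43) and Relb (0.66) did not pass in acupuncture against sham (limma adjusted p = 0.0517 and 0.0523). Of the 4 tested relatives of Nfkbia, 2 rose in each comparison against sham, where 8.47% and 4.95% of all tested genes rose. Bcl3, a nuclear IkB protein, had 3.84 and 3.55 FPKM after acupuncture, 2.39 and 2.76 FPKM in ICH and 0.0810 to 0.225 FPKM in sham, and rose by 2.05 and 1.66 (limma adjusted p = 1.24e-04 and 5.67e-04). Nfkbiz rose by 1.08 and 0.97 (limma adjusted p = 0.00257 and 0.00689), while Nfkbid and Nfkbib did not pass in either comparison.

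Of 13 tested textbook targets of NF-kB, 10 rose in acupuncture against sham and 8 in ICH against sham. In these comparisons 8.47% and 4.95% of all tested genes rose. Of those named here, Ccl2, Cxcl10, Icam1 and Bcl2a1b had sham means of 0.189, 0.143, 0.499 and 0.662 FPKM, below the filter. Ccl2, a chemokine for monocytes, had 9.75 and 8.71 FPKM after acupuncture, 8.95 and 7.83 FPKM in ICH and 0.128 to 0.231 FPKM in sham. It rose by 3.10 and 2.98 (limma adjusted p = 2.36e-05 and 4.92e-05). Cxcl10, a chemokine for T cells, rose by 2.47 and 2.48, and acupuncture and ICH differed by -0.01. Icam1, an adhesion molecule for leukocytes, rose by 1.90 and 1.31 (limma adjusted p = 1.54e-04 and 0.00126), and its difference of 0.59 between acupuncture and ICH missed the threshold (limma adjusted p = 0.175). Bcl2a1b, a survival factor of myeloid cells, rose by 2.49 and 1.90, but it has near-identical copies among which reads may be split. Gadd45b, a stress gene, had 9.32 and 6.70 FPKM after acupuncture, 4.83 and 3.92 FPKM in ICH and 5.37 to 7.06 FPKM in sham, and none of its differences passed.

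Only 1 of the other TNF superfamily ligands was tested. This was Tnfsf12 (TWEAK), which changed by 0.69 in acupuncture and 0.81 in ICH against sham without passing (limma adjusted p = 0.0658 and 0.0602). Of 7 other receptors of the superfamily, 2 rose in each comparison against sham, where 8.47% and 4.95% of all tested genes rose. These counts are small and were not tested against those shares. Ltbr, the lymphotoxin-beta receptor, had 8.87 and 8.23 FPKM after acupuncture, 6.09 and 4.92 FPKM in ICH and 2.50 to 2.96 FPKM in sham, and rose by 1.33 and 0.78 (limma adjusted p = 6.67e-04 and 0.0105). The second call was lost without sham replicate 1 (adjusted p = 0.0543). The death receptor Fas rose by 1.17 and 0.96 (limma adjusted p = 0.00710 and 0.0254), the second call being lost without sham replicate 1, 2 or 3 or ICH replicate 2. Tnfrsf12a, the receptor of TWEAK, had 4.42 and 4.21 FPKM after acupuncture, 2.92 and 1.20 FPKM in ICH and 1.62 to 2.11 FPKM in sham, and did not pass (0.86 against sham, limma adjusted p = 0.0604).

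**Figure D3:**
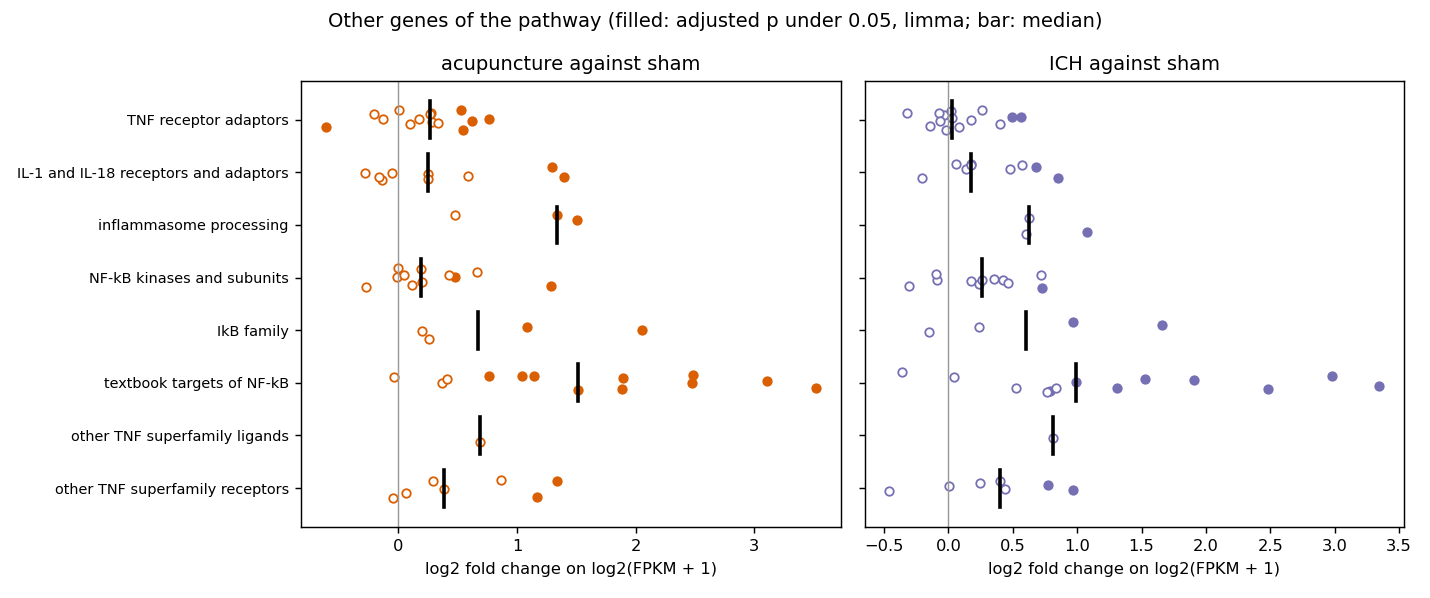
Log2 fold change on log2(FPKM + 1) (horizontal axes) of the 62 tested pathway genes in 8 lists, for acupuncture against sham (left) and ICH against sham (right); filled points passed limma at an adjusted p under 0.05 and the bar is the list's median. The 24 genes that rose after acupuncture, where 8.47% of all tested genes rose, include 10 of 13 textbook targets of NF-kB. Cyld is the filled point below 0.

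The second readout was the position of m6A. In the authors' peak lists, made per group with no value per sample, the 10 genes held 23 peaks after acupuncture, 16 in ICH and 14 in sham, of 50105, 54754 and 48251 listed peaks. At a log2 enrichment of at least 1 they held 12, 14 and 11, so the order of acupuncture and ICH depends on the cutoff. All 10 genes had a peak in the acupuncture and ICH lists, where 94% and 94.3% of tested genes had a peak. In the sham list 7 of the 10 had a peak, where 93.6% of tested genes did, and the genes without one were Tnf, Il1a and Il1rn. Those 3 had the lowest sham levels of the set, at means of 0.141, 0.232 and 0.116 FPKM. Whether a low RNA level kept peaks off the list was not tested. Of the peaks, 17 of 23, 14 of 16 and 11 of 14 were annotated to the 3′ untranslated region (3′ UTR), the usual place of m6A around and after the stop codon. That share over all listed peaks was not computed.

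Enrichment is the authors' log2 of IP over input, whose median over all listed peaks was 1.12 after acupuncture, 1.24 in ICH and 1.07 in sham. The strongest peak of the set lay in the 3′ UTR of Il1r1, at 3.21 after acupuncture, 3.20 in ICH and 3.53 in sham. The 3′ UTR of Tnfaip3 followed in every group, at 2.91 after acupuncture (chr10:19001660-19003869), 2.98 in ICH and 3.04 in sham, and Tnfrsf1b had 2.78, 2.88 and 2.99. These 3 genes kept strong peaks in every group although their RNA level differed between groups. Tnfrsf1a had 2.18, 2.39 and 2.34, and Il18 had 1.29, 1.50 and 1.18. Tnf had 1.96 after acupuncture (chr17:35199381-35199655) and 2.83 in ICH (chr17:35199381-35199680), in the same stretch at the end of its 3′ UTR. Il1b had 1.75, 1.46 and 2.00. Il1a had 1.40 after acupuncture and 0.65 in ICH, and Il1rn had 0.957 and 1.004.

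At an overlap of at least 1 base, 16 of the 23 acupuncture peaks (69.6%) met an ICH peak, and 15 of the 16 ICH peaks (93.8%) met an acupuncture peak. With sham, 12 of 23 acupuncture peaks (52.2%) and 12 of 14 sham peaks (85.7%) overlapped. Between ICH and sham, 10 of 16 ICH peaks (62.5%) and 11 of 14 sham peaks (78.6%) did. The same shares over all listed peaks were not computed, so these counts only describe the set. Some peaks were wide, up to 13308 bases for Il1r1 in ICH. A peak annotated to the 5′ UTR of Tnf (0.95) was listed after acupuncture alone, and a peak in the 5′ UTR of Nfkbia (0.99) in sham alone, but without a value per sample this is a difference between lists that was not tested.

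**Figure D4:**
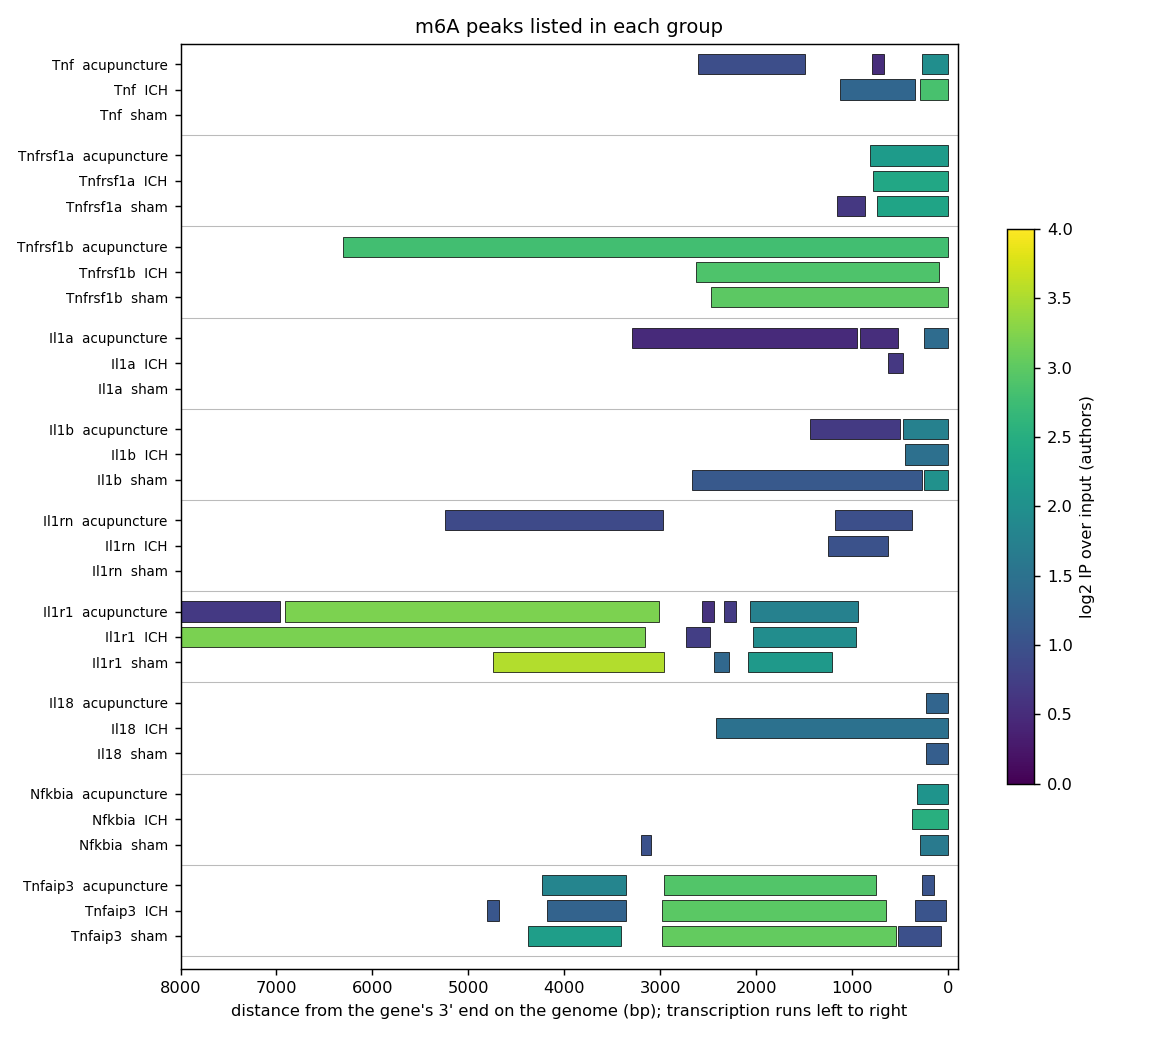
m6A peaks of the 10 genes in the authors' lists for acupuncture, ICH and sham, drawn by distance in bases from the gene's 3′ end on the genome (horizontal axis), with colour for log2 IP over input. Most peaks sit near the 3′ end, and 12 of the 23 acupuncture peaks meet a sham peak, while Tnf, Il1a and Il1rn have none in sham. The share of all listed peaks that meet was not computed. Parts of wide Il1r1 peaks lie beyond the left edge.

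In the authors' deposited tables of differential peaks, which list peaks with a p under 0.05 and give 1 value per group, 3 of the 10 genes had a peak in ICH against sham, where 77.8% of tested genes had one. For acupuncture against ICH 5 of the 10 genes did, where 73.5% of tested genes had one, and for acupuncture against sham 2 of the 10 did, where 64.2% had one. Listed peaks as a whole were mostly higher in ICH than in sham (78.7%) and mostly lower after acupuncture than in ICH (18.7% higher), and 58.2% were higher after acupuncture than in sham, so a direction is read here beside that shift.

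The 3′ UTR peak of Nfkbia and a peak of Tnfaip3 annotated as exonic were listed in all 3 of the authors' deposited tables. This Tnfaip3 peak is named coding here, a word that the authors' annotation does not use. The Nfkbia peak had 2.55 in ICH and 1.49 in sham, a difference of 1.06 (authors' adjusted p = 3.34e-17, chr12:55489410-55489759). It had 1.98 after acupuncture and 2.57 in ICH, a difference of -0.59 in the authors' deposited table (authors' adjusted p = 8.34e-08), and 2.03 after acupuncture and 1.51 in sham, a difference of 0.52 (authors' adjusted p = 5.46e-05). The acupuncture value thus lay between ICH and sham, while the RNA level of Nfkbia was highest after acupuncture. Il18, whose RNA level was called in no comparison, had a 3′ UTR peak of 1.59 in ICH and 0.93 in sham in the authors' deposited table (difference 0.66, authors' adjusted p = 4.94e-05). The same end of Il18 had 1.28 after acupuncture and 1.78 in ICH (difference -0.50, authors' adjusted p = 0.00612, chr9:50581610-50581834).

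Tnfaip3 went against the direction of most listed peaks. The authors' deposited table gave its coding peak 1.25 in ICH and 2.41 in sham, a difference of -1.17 (authors' adjusted p = 2.04e-05, chr10:19004295-19005144). It gave 1.83 after acupuncture and 1.22 in ICH, a difference of 0.62 (authors' adjusted p = 0.0195). After acupuncture and in sham the authors' deposited table gave it 1.73 and 2.21, a difference of -0.48 (authors' adjusted p = 0.152), and gave its 3′ UTR peak 2.78 and 3.14, a difference of -0.37 (authors' adjusted p = 0.104). The end of the Tnf 3′ UTR had 1.84 after acupuncture and 2.78 in ICH in the authors' deposited table (difference -0.94, authors' adjusted p = 0.0906), and that of Il1a had 1.48 and 0.52 (difference 0.96, authors' adjusted p = 0.0961). Of the 11 listed differences, 7 had an authors' adjusted p under 0.05, namely those of Nfkbia and Il18 and the coding peak of Tnfaip3 in both comparisons with ICH. They were 3 of 3 in ICH against sham, where 20313 of all 23124 listed peaks had such a p. In acupuncture against ICH they were 3 of 5, beside 15457 of 20948, and in acupuncture against sham 1 of 3, beside 10974 of 17242. Counts this small were not tested against those of all listed peaks.

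**Figure D5:**
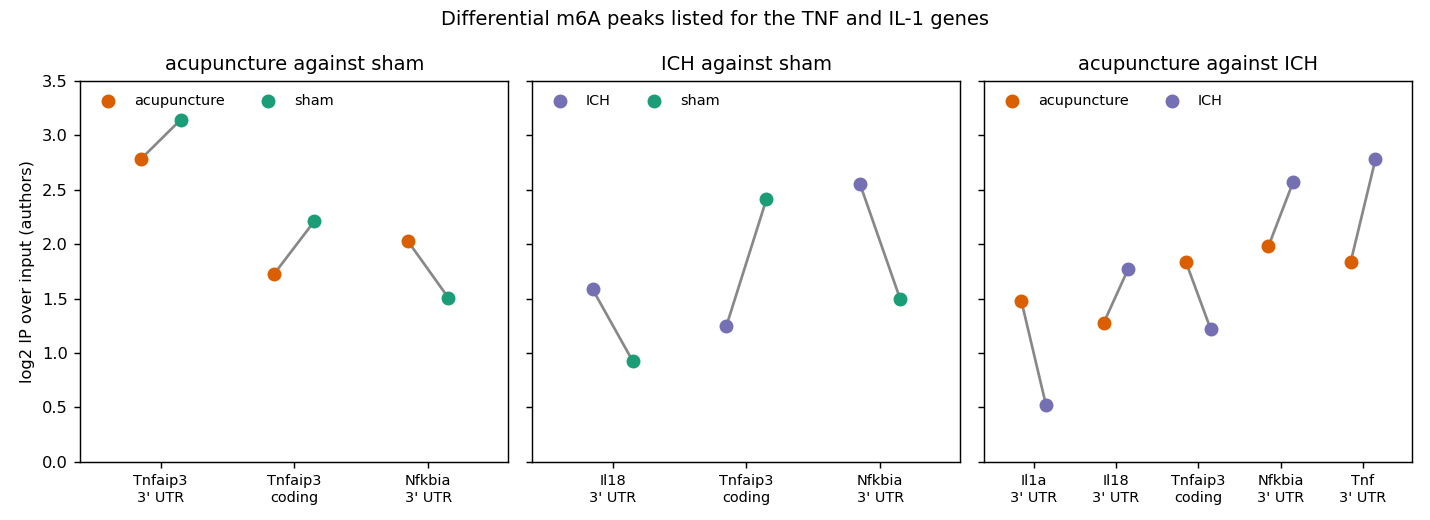
Log2 IP over input (vertical axis) of each differential m6A peak listed for the 10 genes in the authors' deposited tables, for acupuncture against sham, ICH against sham and acupuncture against ICH; each line joins the values of the 2 groups at 1 peak. Nfkbia is higher in ICH than in either other group. The peak of Tnfaip3 marked coding, which the authors annotated as exonic, is lower in ICH than in either other group. There is no replicate spread to draw.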

How the data were processed

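Sequencing of IP and input RNA was done on 14 libraries. The authors deposited FPKM per gene for the input libraries, per the file headers, and 2 columns whose headings match no sample were not used. Columns headed control and EA were matched to sham and acupuncture by elimination. The authors deposited a peak list per group and tables of differential peaks with log2 IP over input and their own p-value and adjusted p-value. Per the submitters' processing notes, fastp, HISAT2, HOMER, StringTie and edgeR were used, without versions or roles, and a human build is named although the files hold mouse identifiers. The peak caller and the strand setting of counting are not given in the sources used here, nor whether samples behind the 2 columns entered the peak lists. By symbol, 25208 genes matched the RefSeq GRCm38.p6 table, 96.31% within 1000 bases of the same place, so positions are given on GRCm38, counted from 1. Low FPKM values showed no steps of whole reads, so depth and its precision are unknown.

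A gene was fitted if it averaged 1 FPKM or more over the 7 input libraries, on log2(FPKM + 1) in limma 3.58.1 (R 4.3.3), with a mean per group, a variance trend and Benjamini-Hochberg adjustment, two-sided. Where acupuncture and ICH were joined, they shared a mean. The fit was tested on simulated data. Exact permutation tests used scipy 1.17.1 in Python 3.11.15. The members and lists were chosen with earlier results of these data known. Of each list, up to 4 tested genes with the smallest p in acupuncture against sham and up to 2 in acupuncture against ICH are named, and for 4 members the 3 genes of highest Pearson's r. Alternatives changed the pseudocount, filter, scaling, variance trend, libraries fitted, replicate block, the cutoffs for peaks and their overlap, and the libraries kept. The test of Il1rn and the promoter motif were added after the data were seen.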

Additional observations from a re-analysis of the deposited data

Results flagged for a closer look

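Among the 4 haemorrhage libraries, joining the 2 acupuncture and 2 ICH libraries, acupuncture replicate 1 stood apart for 2 of the 10 genes by Dixon's criterion. Under it the gap from the highest or the lowest library to the next, whichever is larger, is divided by the range. For Il1rn, with 2.83 FPKM in acupuncture replicate 1 against 0.570 to 0.886 FPKM in the other 3 libraries, this was 0.860. For Tnfaip3, with 1.82 FPKM against 1.31 to 1.39 FPKM, it was 0.837. Both lie above the 95% critical value for 4 libraries, which chance passes in about 1 of 20 groups drawn from a single population. These libraries join 2 treatment groups, which did not overlap for Il1rn, so that rate need not hold here. Il1b lay just under it at 0.820.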

How the results depend on the processing

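Of 519 values of the tested genes under alternative settings, 455 kept their direction and side of the threshold, 39 lost a call, 18 gained one and 7 changed sign. The sign changes were of small differences. Nfkbia in ICH against sham ranged from -0.043 (without ICH replicate 1) to 0.58 when 1 library was left out. In acupuncture against ICH the ranges were -0.35 to 0.030 for Il1a (-0.023 without acupuncture replicate 1), -0.14 to 0.14 for Il1r1 (0.083 without ICH replicate 2) and -0.090 to 0.24 for Il18, and Il1a was -0.025 with rescaled libraries. With no filter 5 of 10 genes were called in acupuncture against sham and 2 of 10 in ICH against sham. In that setting 4.09% and 1.97% of all genes fitted rose. Leaving out 1 library gave 2 to 8 calls in acupuncture against sham, 2 to 6 in ICH against sham, 0 to 3 in acupuncture against ICH and 4 to 6 with the haemorrhage groups joined; the cause was not tested. The permutation differences without 1 library were 1.50 to 2.45 FPKM for Tnf, 1.41 to 2.96 for Il1b and 0.610 to 1.36 for Il1rn. With the replicate number as a block, 5 genes were called in acupuncture against sham and 2 in ICH against sham. In that setting 4.73% and 2.38% of all tested genes rose. Same-numbered libraries correlated at -0.015 to 0.094 in their deviations from group means, so the numbers were not taken as a pairing. At log2 enrichment of at least 1, acupuncture, ICH and sham kept 12, 14 and 11 peaks, and at most 1000 bases wide 14, 11 and 10. At 50% overlap of both peaks, 9 acupuncture peaks met an ICH peak and 7 a sham peak, again with no share over all listed peaks computed. At an authors' adjusted p under 0.05, 3 differential peaks remained in acupuncture against ICH and 1 in acupuncture against sham, and none (0 and 0) at a difference of at least 1. Over all genes, acupuncture against sham called 1598 (775 to 3197 without 1 library), ICH against sham 776 (392 to 5204) and acupuncture against ICH 5 (2 to 5098), the highest of each without ICH replicate 1. FPKM without read counts limits the precision known for genes under 1 FPKM in sham.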
